A study of Homo sapiens with 18 samples.

Results

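The contrast described here set Raji cells of low GFP level against Raji cells of high GFP level at 72 h, over all 71318 peaks of an Omni-ATAC-seq count table. It used 6 of the 18 count columns of the series, 3 for each GFP level. Raji is a human B-cell line of Burkitt lymphoma origin, and every sample carries the genotype label Smarca4+/+. The series follows degradation of the SMARCA4 protein through an auxin-inducible degron, in which a plant hormone directs a tagged protein to the proteasome. GFP-high and GFP-low cells were also collected at 24 and 48 h. The labels say neither what GFP reports nor whether auxin was given, so the groups are named by GFP level alone.

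SMARCA4 (BRG1) and its paralog SMARCA2 (BRM) are alternative ATPases of the BAF complex, which uses ATP to slide or evict nucleosomes. In many cell types BAF is known for keeping enhancers open, which mostly lie away from genes, while many CpG-rich promoters can stay open with less of it. In germinal centre B cells, the cells from which Burkitt lymphoma arises, enhancers of the B-cell programme are bound by factors such as PAX5, MEF2 proteins and IKZF1. In ATAC-seq a transposase cuts accessible DNA, so the count in a peak is a measure of how open that region is.

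The 3 columns of each GFP level at 72 h differed from each other by 1.80 to 1.81 times the variance of counting, in the weakest and the strongest eighth of peaks alike (1.77 to 1.84 and 1.80 to 1.87). Columns of the other GFP level differed by 4.46 to 4.91 times. The columns of a group therefore varied like repeated counts of 1 library, and they were summed. The GFP-high library held 24677828 counts and the GFP-low library 29790483. With 1 library per GFP level the 72 h difference has no test. It is given as log2 of GFP low over GFP high, in CPM (counts scaled to library size, here by TMM) with a prior count of 2, and with a 95% counting interval that covers counting error only. GFP was compared again in the 24 and 48 h libraries, which do not enter the 72 h contrast, with edgeR's quasi-likelihood test over 4 libraries. That fit has 1 residual degree of freedom, so its p-values rest on the spread shared over peaks. Nothing says that these libraries came from separate cultures, so this spread may be technical.

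B-cell identity was checked at peaks within 1 kb of an end of marker genes. Of 14 B-cell markers 11 had such a peak. Averaged over all 14, those without a peak included, there were 22.5 CPM per gene in GFP high and 23 in GFP low at 72 h. BLK and CD24 were among those with none. Of 13 myeloid markers 2 had one (4.56 and 5.25 CPM per gene, again over the whole list). Of 11 epithelial and stromal markers it was 4 (5.82 and 5.64), and of 15 T-cell markers 7 (12.8 and 10.8). A lower value can thus come from fewer genes with a peak and need not mean weaker peaks. The summed GFP-high CPM was 315.6 from 11 B-cell markers, 191.7 from 7 T-cell, 59.3 from 2 myeloid and 64.0 from 4 epithelial and stromal markers. The T-cell markers with a gene-end peak were BCL11B, CD2, CD247, CD28, CD3D, CD3E and CD8A, while CD3G, CD4, CD8B, GATA3, LCK, TCF7 and ZAP70 were among those with none. ITGAM and CEBPB were the myeloid markers with one, and COL1A1, COL1A2, DCN and VIM the epithelial and stromal ones. Open chromatin at a marker does not show its expression, and a mixture of cells cannot be told apart from partly open sites in every cell.

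At 72 h far more regions were less open than more open in GFP-low cells, and nearly all of them lay away from gene ends. At least 2-fold lower counts were seen in 2732 of 71318 peaks (3.83%), and at least 2-fold higher counts in 65 (0.0911%). With a 1.5-fold threshold 10719 peaks (15.0%) were lower and 1393 (1.95%) higher, so that 88.5% of these were lower. Scaling by loess against abundance gave 8355 lower and 2887 higher peaks at 1.5-fold, or 74.3% lower, and 1759 and 186 at 2-fold. The 3 GFP-low columns lay below all GFP-high columns in 16228 peaks (22.8%) and above them in 12493 (17.5%). The median over all peaks was 0.00 on the log2 scale (-0.001), and 0.02 with loess scaling.

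Gene ends, which include most promoters, stood apart from other positions. Peaks within 1 kb of either end of a protein-coding gene numbered 13711, or 19.2% of all, and 48 of them (0.35%) were at least 2-fold lower. They made up 1.76% of the 2-fold lower peaks (exact binomial 95% interval 1.3 to 2.32%, for counting only). That interval takes peaks as independent, while lower peaks had lower neighbours (below), so it may be too narrow. It says nothing of the spread between libraries. Of 30805 peaks inside genes 1280 (4.16%) were 2-fold lower, and of 26802 intergenic peaks 1404 (5.24%). The median log2 difference was 0.17 at gene ends, -0.09 inside genes and -0.08 between genes. With loess scaling these medians came to 0.08, -0.03 and 0.00. At gene ends 30 peaks (0.219%) were at least 1.5-fold higher, against 636 inside genes and 727 between them.

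**Figure D1:**
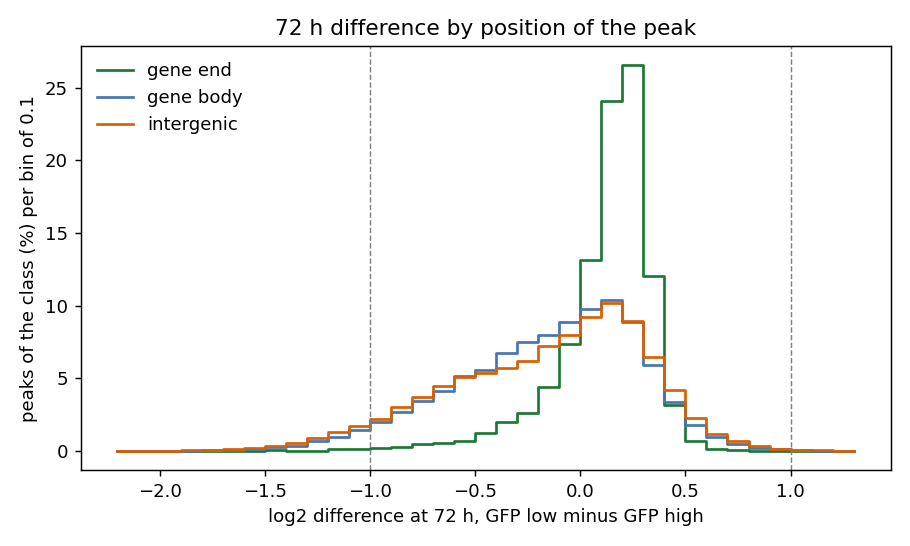
Distribution of the 72 h log2 difference (GFP low minus GFP high, horizontal axis, bins of 0.1) as the percentage of peaks in each position class (vertical axis). The gene-end curve is narrow with its median at 0.17, while the gene-body and intergenic curves reach far past the dashed line at -1 (2-fold lower) and little past the line at 1.

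Gene-end peaks were also stronger, with a median of 22.1 CPM in GFP high against 7.07 inside genes and 6.27 between them, so positions were set side by side at equal strength. In the seventh of 10 equal bins of abundance, at about 11 CPM, 0 of 1295 gene-end peaks were 2-fold lower, against 67 of 3240 (2.07%) inside genes and 77 of 2596 (2.97%) between genes. The same order held in the weakest bin, at about 2.7 CPM, with 7.3% at gene ends, 10.3% inside genes and 11.2% between genes. In the second bin gene bodies and intergenic peaks changed places, with 3.14% at gene ends, 7.41% inside genes and 7.09% between genes. In the strongest bin 0 of 4865 gene-end peaks, 2 of 1440 gene-body peaks and 0 of 827 intergenic peaks were 2-fold lower. Weak peaks thus held more 2-fold lower calls at every position, and their counts are also the least precise.

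The share of 2-fold lower peaks grew with distance from the nearest gene end. It was 0.35% within 1 kb, 2.31% from 1 to 5 kb, 3.86% from 10 to 20 kb, 5.48% from 50 to 100 kb and 6.85% from 100 to 250 kb. Beyond 250 kb it was 6.39%. The share of 1.5-fold higher peaks went from 0.219% within 1 kb to 3.39% beyond 250 kb. Over the same bins the median GFP-high level went from 22.1 to 5.18 CPM, and its part in these shares was not tested beyond the abundance bins above.

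**Figure D2:**
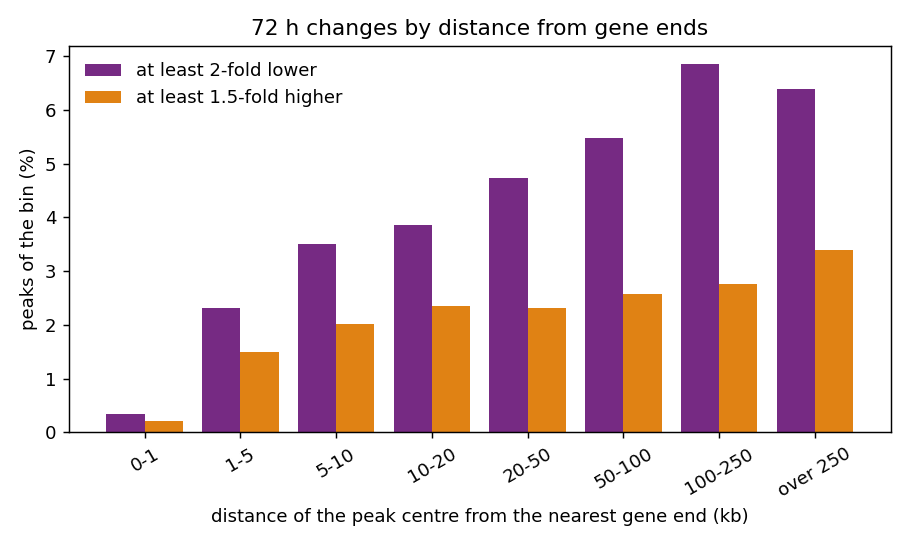
Percentage of peaks (vertical axis) at least 2-fold lower or at least 1.5-fold higher in GFP low at 72 h, by distance of the peak from the nearest end of a protein-coding gene (horizontal axis, kb). The lower share goes from 0.35% in the first bin to 6.85% at 100 to 250 kb.

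Lower peaks had lower neighbours. Only distal peaks, those away from gene ends, were used, and only where the nearest peak of any kind was distal too. Of the 471 2-fold lower ones with that neighbour within 2 kb, 135 (28.7%) had a 2-fold lower neighbour. Among all distal peaks with such a neighbour that near it was 3.52%. At 2 to 10 kb the share was 12.8% (4.92% among all), and over 50 kb it was 8.5% (5.26%). The median difference of the neighbours was -0.73 within 2 kb and -0.12 over 50 kb (-0.12 and -0.01 among all distal peaks at these distances). By chromosome, the share of distal peaks 2-fold lower went from 1.92% on chromosome 19 and 2.39% on chromosome 22 to 5.43% on chromosome 3 and 5.72% on chromosome 15.

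The largest differences were named among peaks with a mean of at least 100 counts and no overlap between the columns of the 2 GFP levels, so this lack of overlap is no result. All 12 of the lowest differences lay away from gene ends, and 4 had no protein-coding gene within 50 kb. Of all 71318 peaks, 59528 had such a gene. A peak inside EPHB1, which codes for an ephrin receptor kinase, had 21.2, 19.2 and 21.5 CPM in the GFP-high columns and 4.82, 5.18 and 4.44 in the GFP-low columns. Every GFP-low column was thus under 6 CPM and every GFP-high column over 19. The difference was -2.09 (-2.45 to -1.73), from 514 and 141 counts, at hg38 chr3:135066948-135067448, 193.3 kb from the nearer end of the gene. The GFP difference at this peak was -2.28 at 24 h and -1.30 at 48 h, and it was lower in the test on those libraries (edgeR adjusted p = 4.37e-18, log2 -1.78 ± 0.18 SE).

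RAD51B acts in repair of DNA by homologous recombination. A peak inside it (chr14:68622722-68623222) had 7.36, 8.11 and 7.33 CPM in the GFP-high columns and 1.75, 2.16 and 1.36 in GFP low, a difference of -2.09 (-2.69 to -1.49). The GFP-high columns were close together and more than 3 times the highest GFP-low column. WDR1 helps cofilin to take apart actin filaments. A peak 34.5 kb outside it (chr4:10151080-10151580) had 15, 20.3 and 20.4 CPM in the GFP-high columns and 4.71, 4.21 and 4.26 in GFP low (-2.07, -2.45 to -1.70). A peak 34.3 kb from P2RY10, a G-protein-coupled receptor of lymphocytes, had 15.6, 12.5 and 14.1 CPM against 3.72, 2.91 and 4.80 (chrX:78997804-78998304, -1.84, -2.25 to -1.43).

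A peak inside MAP6, which stabilises microtubules, differed by -2.01 (-2.55 to -1.46). It lies at chr11:75639598-75640098, and its difference was -1.46 at 24 h and -0.93 at 48 h. A peak inside PLPP4, a lipid phosphatase gene, differed by -1.90 (-2.52 to -1.27), and one inside ADGRL2, an adhesion receptor gene, by -1.82 (-2.42 to -1.22). The gene-free peaks at chr2:103138389-103138889 and chr6:105643906-105644406 were 294.8 and 241.1 kb from a gene end and differed by -2.02 and -1.84. All 12 lowest peaks were also lower in the edgeR test on the 24 and 48 h libraries. That test called 18.8% of all peaks lower, and 92.7% of the 2-fold lower peaks with a mean of at least 100 counts.

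**Figure D3:**
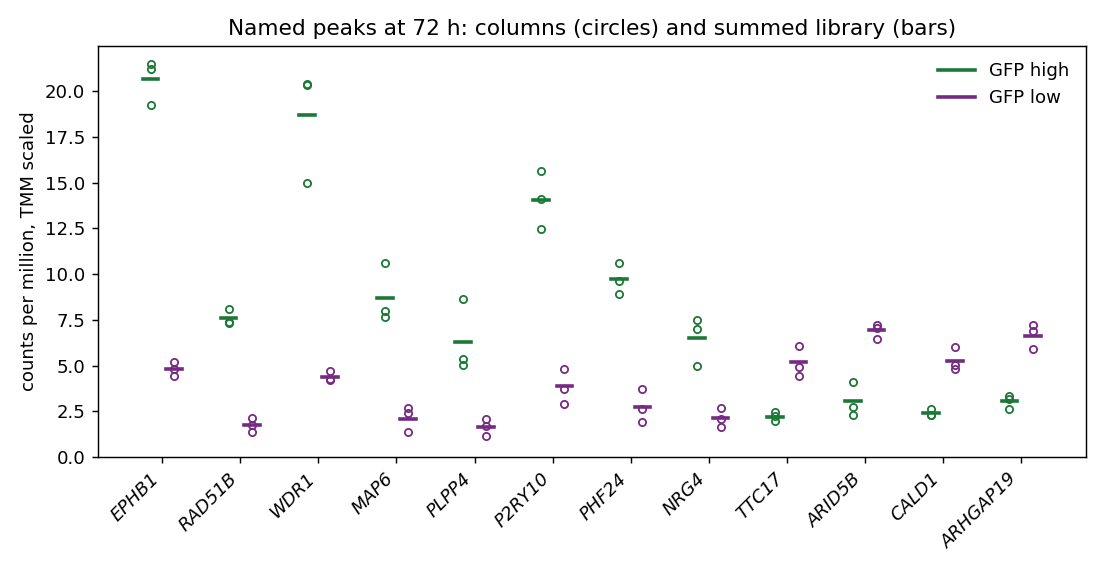
CPM at 72 h (vertical axis) of named peaks, labelled by gene, in the 3 columns of each GFP level (circles) and in the summed library (bars). EPHB1 to P2RY10 are among the lowest differences, PHF24 and NRG4 are at gene ends, and TTC17 to ARHGAP19 are among the highest. The columns of the 2 GFP levels do not overlap at any of these peaks, which was a condition for naming them.

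Under the same naming rule the 12 highest differences were smaller and sat on weaker peaks. The highest, 20.3 kb outside TTC17 (chr11:43515003-43515503), had 2.46, 2.25 and 1.97 CPM in the GFP-high columns and 4.92, 4.42 and 6.07 in GFP low. The columns were apart, but from only 55 and 153 counts, and the difference was 1.21 (0.61 to 1.80). It was -0.34 at 24 h and 0.22 at 48 h. A peak inside ARID5B, a DNA-binding coregulator, had 2.33, 4.12 and 2.74 CPM against 7.22, 6.47 and 7.06 (1.16, 0.65 to 1.67), with -0.30 at 24 h and 0.82 at 48 h.

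Peaks near CALD1, which codes for the actin-binding protein caldesmon, and inside ARHGAP19, a gene for a GTPase-activating protein, were both higher by 1.10. Neither difference was past 0.30 in size at 24 or 48 h. Other high peaks lay near PAPSS1 (1.10), an enzyme that makes the sulfate donor of the cell, inside the channel gene TRPM3 (1.08), near P4HA2 (1.07), a collagen hydroxylase subunit, and inside GMDS (1.06), an enzyme of GDP-fucose synthesis. Of the 12, 2 were higher in the edgeR test on the 24 and 48 h libraries, against 3.51% of all peaks. Neither of these 2 has a protein-coding gene within 50 kb. The first, chr2:64922494-64922994, had 5.17, 4.87 and 6.68 CPM against 11.7, 12.3 and 11.3 (1.05, 0.67 to 1.43; edgeR adjusted p = 0.000706). The second, chr12:29053461-29053961, differed by 1.06 (0.61 to 1.52; edgeR adjusted p = 0.00409).

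The 2-fold lower peaks of 72 h were lower at the other times too. Their median difference was -1.17 at 72 h, where they were chosen, -1.10 at 24 h and -0.93 at 48 h. Of the 2732 peaks, 2661 (97.4%) were lower at both other times, against 37.2% of all peaks. At 24 h 1614 (59.1%) were 2-fold lower, against 8.16% of all, and at 48 h 1174 (43.0%), against 3.85%. At both times 889 (32.5%) passed 2-fold, against 2.44% of all. The edgeR test on the 24 and 48 h libraries called 2374 of them lower (86.9%), against 13393 of all peaks (18.8%). The DESeq2 Wald test on the same libraries called 1183 (43.3%) of them, against 3610 of all peaks (5.06%).

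The higher peaks were followed in the same way, but chosen at 1.5-fold, a weaker threshold than for the lower peaks above. At 1.5-fold, 10045 of 10719 lower peaks (93.7%) were lower at both other times. The edgeR test on the 24 and 48 h libraries called 7911 (73.8%) of these lower. The 1393 peaks at least 1.5-fold higher at 72 h had a median of 0.68 there, 0.28 at 24 h and 0.33 at 48 h, and 959 (68.8%) were higher at both times, against 36.6% of all peaks. The edgeR test called 152 of them higher in the 24 and 48 h libraries (10.9%), against 2503 of all peaks (3.51%). The DESeq2 Wald test called 4 of them, out of 14 of all peaks (0.0196%). With loess scaling the edgeR test called 317 of them (22.8%), against 3598 of all peaks (5.05%). The 65 peaks at least 2-fold higher had medians of 1.81 CPM in the GFP-high library and 4.18 CPM in the GFP-low one, and 9 of them (13.8%) were called higher. Their number came to between 86 and 170 when 1 of the 6 columns was left out, and to 20 where peaks needed a mean of 100 counts or more.

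**Figure D4:**
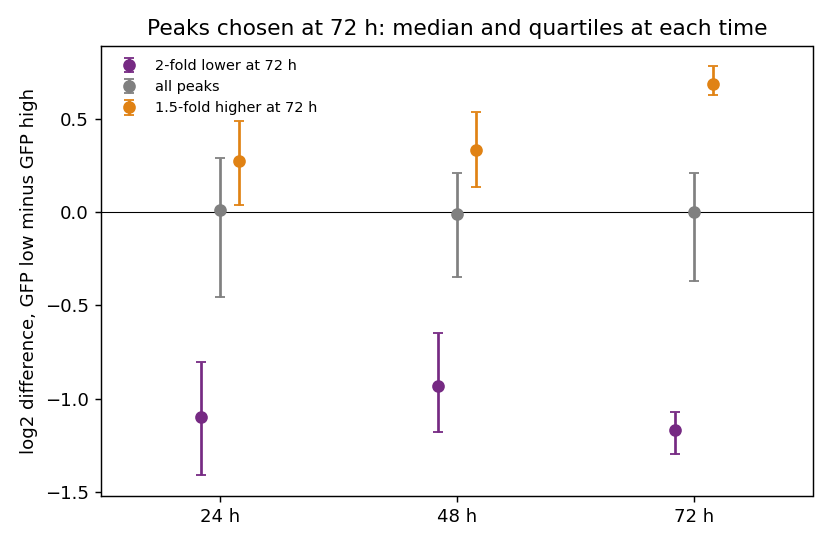
Median (points) and quartiles (bars) of the log2 difference (GFP low minus GFP high, vertical axis) at 24, 48 and 72 h for peaks chosen at 72 h and for all peaks. Peaks 2-fold lower at 72 h have medians of -1.10 and -0.93 at the other times, and peaks 1.5-fold higher have 0.28 and 0.33.

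Whether the 72 h difference departed from that at 24 and 48 h was tested with edgeR over 6 libraries. At a Benjamini-Hochberg adjusted p under 0.05, 0 peaks (0.0%) lay below and 0 (0.0%) above. At an unadjusted p under 0.05 there were 628 below and 497 above, and with DESeq2 0 passed in either direction, with 12 and 4 unadjusted. In simulated data this test recovered 10 of 100 peaks changed 2-fold, so a departure of that size would mostly be missed. The lowest p in the downward direction was at a peak inside FGD4, a gene for an activator of the GTPase CDC42. It had 6.72, 8.86 and 9.52 CPM in the GFP-high columns and 2.74, 3.13 and 3.44 in GFP low at 72 h (-1.41), with 0.20 at 24 h and -0.44 at 48 h (edgeR unadjusted p = 0.000213, adjusted p = 1.0).

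Peaks inside SLC4A9 (-1.14 at 72 h, 0.19 and 0.55 before), inside GPATCH2L (-1.06, 0.26 and -0.27) and 4.8 kb from GPR132, a receptor gene of lymphocytes (-0.97, 0.42 and -0.15), followed. In the other direction, a peak 19.1 kb from BATF3, an AP-1 family factor, differed by -1.01 at 24 h, -1.44 at 48 h and -0.28 at 72 h. A peak inside MTAP, which salvages methionine, differed by -1.89, -2.05 and -0.90, and one inside CNTNAP2 by -2.50, -1.54 and -0.78. The adjusted p was 1.0 for each of these.

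Lower peaks were spread over many genes. Of 14829 genes with a peak, 1523 had at least one that was 2-fold lower, 304 had 2 or more and 11 had 5 or more. Of the 2732 lower peaks 789 had no gene within 50 kb, while 59528 of all 71318 peaks had one. NCKAP5, a very long gene of 1003 kb, had 8 of 22 peaks 2-fold lower with a median over its peaks of -0.84. RAD51B had 7 of 31 and DLG2, a synaptic scaffold gene, 7 of 53. MOB3B, at 204.6 kb, had 6 of 16 with a median of -0.86, and 11 of its 16 peaks were called lower in the 24 and 48 h libraries. GRID1 had 6 of 35, and FGD4, HMCN1, FHIT and ANK3 had 5 each.

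Among genes with at least 5 peaks, GGTLC1 had 4 of 5 peaks 2-fold lower, and DHRS9, a retinol dehydrogenase gene, had 3 of 5 with a median of -1.33. GCNT4 and PARM1 also had 3 of 5. For higher peaks, 963 genes had one at least 1.5-fold higher and 68 had 2 or more, led by the adhesion receptor gene ADGRB3 with 4 of 9 (median 0.53) and the phosphatase gene PTPN1 with 3 of 10. PTPN1 also held a peak at -1.53, and 165 genes held both a 2-fold lower and a 1.5-fold higher peak.

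Genes of the B-cell programme were described by the share of their peaks at least 1.5-fold lower, against 15.0% of all peaks. Transcription factors that set B-cell identity had 45 of 331 such peaks (13.6%), with a median of -0.08 and 0 peaks 1.5-fold higher. By the naming rule above, a mean of at least 100 counts and columns that do not overlap, their lowest peak lay 48.5 kb from MEF2C. It had 8.14, 8.73 and 8.43 CPM in the GFP-high columns and 2.63, 2.91 and 3.26 in GFP low. These columns were well apart, at -1.49 (-1.98 to -1.01; edgeR adjusted p at 24 and 48 h = 3.13e-05). A peak inside PAX5, the master regulator of B-cell commitment, had 18, 18.7 and 15.9 CPM against 6.35, 8.52 and 7.61, at -1.21 (-1.52 to -0.89; adjusted p by edgeR at 24 and 48 h = 3.03e-07). A peak 8.0 kb from IKZF1, the Ikaros gene, differed by -0.95 (-1.27 to -0.63).

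B-cell receptor signalling genes had 45 of 262 peaks 1.5-fold lower (17.2%), and 14 of them (5.34%, against 3.83% of all peaks) were 2-fold lower. The 2-fold share was 5.93% for memory B-cell genes (8 peaks), 5.13% for surface markers (2 peaks, both of 1 gene) and 2.99% for plasma cell genes (2 peaks). It was 1.51% for identity factors (5 peaks), and 0.885, 0.877 and 0.855% for migration, light zone and dark zone genes (1 peak each). The order of these lists thus rests on few peaks. The lowest B-cell receptor signalling peak by the naming rule was inside DAPP1, an adaptor that binds the lipids made by phosphoinositide 3-kinase. It had 8.66, 8.36 and 8.10 CPM in the GFP-high columns and 2.96, 1.94 and 3.26 in GFP low (-1.58, -2.08 to -1.08). A peak inside PIK3CG, a catalytic subunit of that kinase, differed by -1.44 at 72 h, -2.02 at 24 h and -2.17 at 48 h. One inside PIK3AP1, an adaptor that recruits the kinase, differed by -1.26. All 3 were lower in the edgeR test on the 24 and 48 h libraries, against 18.8% of all peaks.

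Memory B-cell genes had 32 of 135 peaks 1.5-fold lower (23.7%) and a median of -0.30. A peak inside CD44, an adhesion receptor for hyaluronan, had 10.7, 6.49 and 6.46 CPM in the GFP-high columns and 3.61, 2.37 and 2.72 in GFP low (-1.41, -1.91 to -0.92). Peaks near TLE3 and inside TLE1, which code for Groucho-type corepressors, differed by -1.18 and -1.15, and both were at least as low at 24 h. Plasma cell genes had 15 of 67 (22.4%), among them a peak 32.0 kb from PRDM1, the master regulator of plasma cells, with 27.0, 27.3 and 25.2 CPM against 15.9, 16.2 and 14.0 (-0.79, -1.02 to -0.56). Light zone and CD40 genes had 21 of 114 (18.4%), with a peak inside the activation marker CD83 at -1.16. Dark zone genes had 11 of 117 (9.4%), with peaks inside SERPINA9 at -0.99 and inside FOXO1 at -0.95.

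**Figure D5:**
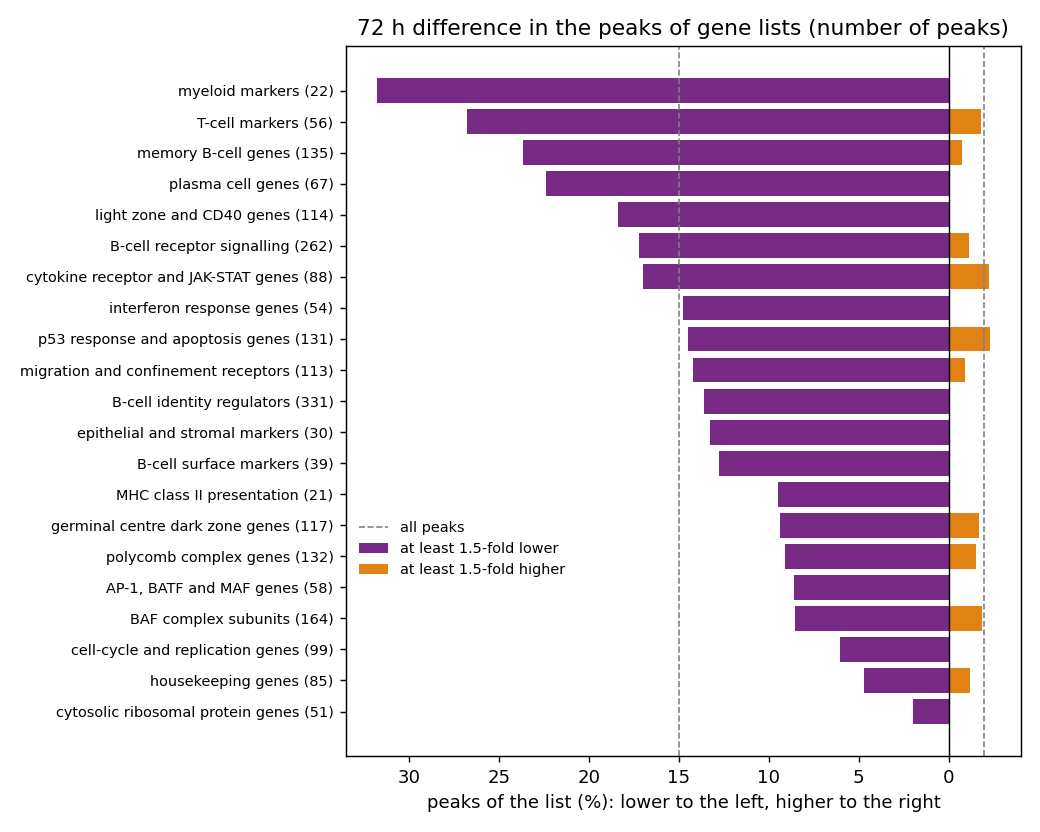
Percentage of the peaks of each gene list (number of peaks in brackets) at least 1.5-fold lower (to the left) or at least 1.5-fold higher (to the right) in GFP low at 72 h. Dashed lines mark the shares among all peaks, 15.0% lower and 1.95% higher; ribosomal protein genes have 1.96% lower and memory B-cell genes 23.7%.

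Of the peaks of B-cell surface markers 5 of 39 (12.8%) were 1.5-fold lower, with a median of -0.05. A peak 23.6 kb from CR2, the complement receptor CD21, differed by -1.20 (-1.61 to -0.78) and one inside FCER2, the low-affinity IgE receptor CD23, by -1.0. The FCER2 difference was 0.29 at 24 h and -0.98 at 48 h. Of migration and confinement receptors, 16 of 113 peaks (14.2%) were 1.5-fold lower. The peak at the end of CCR7, a chemokine receptor that guides lymphocytes to lymph nodes, had 6.20, 7.98 and 6.68 CPM against 4.16, 3.99 and 2.08. The columns were apart at 72 h (-1.05, -1.53 to -0.57), while the difference was -0.01 at 24 h and -0.13 at 48 h. The edgeR p of that departure was 0.00729 unadjusted and 1.0 adjusted. A peak 37.6 kb from ITGA4, an integrin subunit gene, differed by -0.91 and was lower in the edgeR test at 24 and 48 h.

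Genes of survival and the cell cycle held single lower peaks in lists near or under the share of all peaks. Of p53 response and apoptosis genes 19 of 131 peaks (14.5%) were 1.5-fold lower. A peak 44.8 kb from BCL2, the anti-apoptotic gene, had 8.91, 7.86 and 9.19 CPM in the GFP-high columns and 3.39, 2.48 and 2.72 in GFP low. Its difference was -1.58 (-2.07 to -1.09) at 72 h, -0.94 at 24 h and -0.72 at 48 h. Cell-cycle and replication genes had 6 of 99 (6.06%), the lowest by the naming rule inside CDK6 at -1.05. Interferon response genes had 8 of 54 (14.8%), with the peak at an end of ISG20 at -0.86.

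Among genes used by most cells, cytosolic ribosomal protein genes had 1 of 51 peaks 1.5-fold lower (1.96%) and a median of 0.16 (0.10 with loess scaling), and 58.8% of their peaks were at gene ends, against 19.2% of all. Housekeeping genes had 4 of 85 (4.71%). BAF subunit genes had 14 of 164 (8.54%) and polycomb genes 12 of 132 (9.09%). T-cell markers had 15 of 56 (26.8%) and myeloid markers 7 of 22 (31.8%), and a peak 15.5 kb from CD2, a T-cell adhesion receptor, differed by -1.29. No list was tested against the others. The lists differ in their share of gene-end peaks. Among distal peaks only, 18.2% of all peaks were 1.5-fold lower. That share was 28.8% for plasma cell genes, 27.7% for memory B-cell genes and 24.4% for light zone genes. It was 15.1% for identity factors, 7.02% for housekeeping genes and 4.76% of 21 peaks for ribosomal protein genes. The part of gene ends was not tested further.

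The BAF genes themselves were followed at their gene ends. The peak at SMARCA4 (chr19:10960534-10961034) had 11.9, 14.8 and 13.4 CPM in the GFP-high columns and 17.2, 14.9 and 18 in GFP low. The GFP-low columns lay above the GFP-high ones, the lowest of them only just, by 0.32 (0.06 to 0.59), with 0.67 at 24 h and -0.24 at 48 h. The main peak at SMARCA2 had 75.7, 86.4 and 83.5 CPM against 91.5, 94.3 and 94.4, at 0.19 (0.08 to 0.30), which turned to -0.04 with loess scaling. A second gene-end peak of SMARCA2 differed by 0.16 (-0.05 to 0.37). For comparison, the median over all gene-end peaks was 0.17, and 0.08 with loess scaling. None of these 3 SMARCA4 and SMARCA2 peaks was called in the 24 and 48 h libraries (edgeR adjusted p = 0.41, 0.126 and 0.854). A peak 34.2 kb from ARID1B, a DNA-binding BAF subunit, differed by -1.0 (-1.45 to -0.54), and one 7.8 kb from BICRA, a subunit of the non-canonical BAF complex, by 0.67 (0.44 to 0.89). In polycomb repressive complex 2, peaks near EED and EZH2 and inside AEBP2 differed by -1.14, -0.90 and -1.04. All 3 were lower in the edgeR test at 24 and 48 h, against 18.8% of all peaks. These peaks report openness of DNA and say nothing of the SMARCA4 protein.

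The few gene ends that were lower at 72 h included promoters with little CpG, but a gene end can be either end of a gene. The lowest, 0.8 kb outside PHF24, a PHD finger gene, had 8.91, 10.6 and 9.63 CPM in the GFP-high columns and 3.72, 1.94 and 2.63 in GFP low (-1.79, -2.28 to -1.31). At NRG4, a growth factor of the neuregulin family, the difference was -1.57 (-2.14 to -1.01), and at ERBB4, which codes for a receptor of neuregulins, it was -1.38 (-1.95 to -0.81). At HTR3B, a serotonin receptor subunit gene, it was -1.39. The peaks at PHF24, HTR3B and ERBB4 lay 6906, 39195 and 783264 bases from the nearest listed start site, so they are not taken as promoters. A start site was listed for 15767 of the 19789 genes. At IL23A, which codes for the p19 subunit of interleukin 23, the columns had 12.4, 11.6 and 11.4 CPM against 4.27, 5.93 and 4.35 (-1.27, -1.66 to -0.89), with -0.59 at 24 h and -0.90 at 48 h. Gene-end peaks were named by the rule above, a mean of at least 100 counts and no overlap between columns, keeping a single peak per gene. Of the 6 lowest by that rule 5, those above, were lower in the edgeR test on the 24 and 48 h libraries. That test called 18.8% of all peaks lower, and 79.2% of the gene-end peaks 2-fold lower at 72 h. The sixth, at PARP10 (-1.24), was not called (edgeR adjusted p = 0.0743).

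The highest gene-end differences by the same naming rule were smaller. At EDEM2, which acts in degradation of misfolded glycoproteins, the columns had 8.91, 7.48 and 7.66 CPM in the GFP-high columns and 12.7, 12 and 15.1 in GFP low (0.74, 0.41 to 1.07). Gene ends of DNAJC21, METTL2A, RBFOX2 and MPPE1 differed by 0.81, 0.70, 0.67 and 0.66. None of the 6 highest gene-end peaks by this rule was called higher in the 24 and 48 h libraries by edgeR. Of all 30 gene-end peaks at least 1.5-fold higher at 72 h, 1 was called (3.33%), against 3.51% of all peaks.

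Promoter sequences from RefSeq (GRCh38.p14), 250 bases before to 50 bases after the start, are shown for gene ends at both extremes and for SMARCA4. IL18RAP and GPR82, an interleukin 18 receptor subunit and an orphan receptor gene, were picked after their values were seen. Capitals mark runs of letters found on either strand. They are CCAAT of the NF-Y box, GGGCGG of the GC box, GGAAGT of the ETS core and TGACTCA of AP-1. The letters CACGTG of the E-box, TATAAA of the TATA box and ATTTGCAT of the octamer were also searched, and adjoining matches run together.
IL23A: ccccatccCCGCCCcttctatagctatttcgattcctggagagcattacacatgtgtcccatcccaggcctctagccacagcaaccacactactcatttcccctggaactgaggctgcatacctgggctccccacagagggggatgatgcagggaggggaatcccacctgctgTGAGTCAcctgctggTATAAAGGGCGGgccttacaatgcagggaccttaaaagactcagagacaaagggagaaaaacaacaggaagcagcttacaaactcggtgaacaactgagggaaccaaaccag
IL18RAP: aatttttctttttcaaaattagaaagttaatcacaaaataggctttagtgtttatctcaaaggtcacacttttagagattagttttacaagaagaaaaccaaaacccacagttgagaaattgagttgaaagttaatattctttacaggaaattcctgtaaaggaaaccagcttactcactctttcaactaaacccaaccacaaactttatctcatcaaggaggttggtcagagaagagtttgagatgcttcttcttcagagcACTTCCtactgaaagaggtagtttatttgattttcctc
GPR82: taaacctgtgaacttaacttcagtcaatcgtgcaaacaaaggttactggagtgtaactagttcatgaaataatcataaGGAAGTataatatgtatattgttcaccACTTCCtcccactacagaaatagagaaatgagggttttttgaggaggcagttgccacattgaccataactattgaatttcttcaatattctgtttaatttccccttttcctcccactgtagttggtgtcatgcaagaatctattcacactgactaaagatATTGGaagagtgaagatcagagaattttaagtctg
EDEM2: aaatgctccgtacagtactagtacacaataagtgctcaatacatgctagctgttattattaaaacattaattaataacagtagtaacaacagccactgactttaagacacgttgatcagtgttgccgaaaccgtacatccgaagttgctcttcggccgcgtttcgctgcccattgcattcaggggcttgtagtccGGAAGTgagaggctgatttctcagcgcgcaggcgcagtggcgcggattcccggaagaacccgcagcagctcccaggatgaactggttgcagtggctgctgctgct
SMARCA4: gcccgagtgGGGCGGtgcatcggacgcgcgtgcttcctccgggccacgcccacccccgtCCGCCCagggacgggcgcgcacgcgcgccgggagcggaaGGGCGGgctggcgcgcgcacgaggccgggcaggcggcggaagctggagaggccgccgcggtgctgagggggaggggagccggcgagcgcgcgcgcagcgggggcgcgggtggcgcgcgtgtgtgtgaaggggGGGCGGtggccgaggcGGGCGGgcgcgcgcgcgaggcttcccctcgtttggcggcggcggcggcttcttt

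These windows lie at chr12:56338634-56338933 (IL23A, plus strand), chr2:102418371-102418670 (IL18RAP, plus), chrX:41723931-41724230 (GPR82, plus), chr20:35147287-35147586 (EDEM2, minus) and chr19:10960780-10961079 (SMARCA4, plus). The 72 h differences of their peaks were -1.27, -1.40, -1.09, 0.74 and 0.32. The windows of the lower genes held 4, 0 and 1 CpG, that of EDEM2 17 and that of SMARCA4 55. IL23A alone of the 5 held AP-1 and TATA letters, close to each other upstream of the start.

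The same contrast was seen over the 6162 gene-end peaks that overlapped a promoter window of their gene by at least 150 bases. Their windows held a median of 28 CpG and 66% G or C, while the 46 windows in peaks at least 1.5-fold lower held 3 CpG and 50%. Of 385 windows with under 10 CpG, 38 (9.87%) were in peaks 1.5-fold lower, against 8 of 5777 (0.138%) with 10 or more. Peaks of CpG-poor windows were weaker, so the comparison was repeated by level in GFP high. Below 12.9 CPM, the median level of the CpG-poor windows, it was 27 of 194 (13.9%) against 8 of 719 (1.11%), and at or above that level 11 of 191 (5.76%) against 0 of 5058. These are counts within 1 pair of libraries, the cut-offs were chosen with the values known, and no test was made.

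AP-1 letters were in 5 of the 46 windows of 1.5-fold lower peaks (10.9%), in 2.06% of the 6162 windows and in 4.96% of all 34943 promoter windows of the table. TATA letters were in 15.2%, 4.67% and 11.6%, and GC box letters in 23.9%, 74.4% and 44.9%. The lower windows are few, and a match is a run of letters, not a bound site. Only 8 of the 48 gene-end peaks that were 2-fold lower had a window, and sequences of the distal peaks were not used here.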

How the data were processed

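Raji cells in GFP-high and GFP-low groups were profiled by Omni-ATAC-seq at 3 times. The deposited table gives whole-number read counts, not normalised, for 18 columns and 1 set of peaks of 501 bp. Per the submitters' processing notes, the tools were BWA, FastQC and deepTools with R 4.2.1, and the build was hg38. How peaks were called, how duplicates were handled and whether reads were shifted is not given in the sources used here, and kept duplicates would raise the noise of each count. In the column headers D3 was read as 72 h, and the V number was not tied to a replicate of the labels.

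The 3 columns of a group were summed to 1 library. Log2 CPM used TMM over 6 libraries and a prior count of 2 (edgeR 4.0.16, R 4.3.3). The 95% counting intervals use the Poisson variance times 1.81, the ratio found between columns. The 24 and 48 h fit used time and GFP level as terms, and the 6-library fit added GFP low at 72 h, both with robust quasi-likelihood and Benjamini-Hochberg adjustment at 0.05. The low-count filter of edgeR removed no peak. DESeq2 1.42.0 was an alternative. In simulated data with 71318 peaks the 24 and 48 h fit found 19 of 100 simulated 1.5-fold changes and 87 of 100 that were 2-fold, and it called 4 unchanged peaks. The 6-library fit recovered 1 and 10 of 100, with 1 unchanged peak called.

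Positions came from 19789 protein-coding genes in RefSeq's GRCh38.p14 table, the assembly of hg38, after 95 readthrough and 159 scaffold entries were left out. A peak took a gene with an end within 1 kb, else the gene around it, else the closest gene up to 50 kb away; 59528 peaks received a gene. Exons, introns and UTRs were not separated. Named peaks were the 12 largest differences in each direction, the 6 largest at gene ends, 3 per gene list, the 4 smallest p for a departure at 72 h and the gene ends of SMARCA4 and SMARCA2, and the text names some of them. Some named genes are not reported here. The contrast, the 21 gene lists and the rules were chosen with earlier results of these data known.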

Additional observations from a re-analysis of the deposited data

How the results depend on the processing

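The count of 2732 peaks at least 2-fold lower became 1759 with loess scaling, 1733 with a mean count of at least 100, a minimum chosen after seeing the data, and 10719 at a 1.5-fold threshold. The count of 65 higher peaks became 186, 20 and 1393 in the same order. With 1 column left out the lower count ranged from 2800 to 3064, the higher count from 86 to 170 and the gene-end share of lower peaks from 1.59 to 2.1%. The gene-end share of 1.76% became 3.4% when gene ends reached 2 kb, where 23.3% of all peaks lie. In the 24 and 48 h libraries the DESeq2 Wald test called 3610 peaks lower and 14 higher, in place of 13393 and 2503, and with the 72 h pair added edgeR called 9570 higher. The cause of these shifts was not tested beyond what each setting removes or adds.

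A fit on the 6 columns with the V number as a replicate block gave 2744 lower and 87 higher peaks and a gene-end share of 1.71%, against 2714, 87 and 1.73% without the block. Same-numbered columns of the 2 GFP levels correlated very little in their deviations, at 0.008, 0.0045 and 0.0122. Columns with different V numbers correlated at -0.0091 to 7e-04, all below these values. Whether the V numbers pair the columns was not tested further. Treated as 3 against 3 replicates, these columns would give 12424 lower and 8895 higher calls by edgeR, or 12345 and 8972 with the block, calls that concern these 2 libraries only.

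Over the 13 alternatives that can move a named peak, which leaves out the count minimums, 1428 of 1430 values of the 110 named peaks stayed within their counting interval. The exceptions, both with loess scaling, were the gene-end peaks of CD74, from 0.24 to 0.03, and SMARCA2, from 0.19 to -0.04. Depth limits weak peaks most: the 65 peaks at least 2-fold higher had a median of 84 counts per library.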
